A study of Mus musculus with 4 samples.

Results

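The collagen chain genes were taken as every symbol of the gene table that reads Col, a number, a and a number as a whole, which gave 44 of the 27998 genes counted in each of the 4 libraries. By class, 11 encode chains of fibrillar collagens, 9 of fibril-associated collagens, 6 of the basement membrane network, 6 of beaded filament collagens, 4 of transmembrane collagens, 3 of hexagonal networks, 2 of multiplexins, 1 of anchoring fibrils and 2 of other collagens. A chain was described one by one where it had at least 20 counted molecules in at least 1 cell class of 1 library, which 26 of the 44 chains reached.

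Collagens are secreted proteins in which 3 alpha chains wind into a triple helix, and each chain has its own gene. Fibrillar collagens form the tensile fibres of connective tissue, fibril-associated collagens decorate those fibres, beaded collagens form fine filaments around cells, and the network collagens form the sheet of the basement membrane on which endothelium rests. Heart valves are built largely of collagen laid down by valve interstitial cells, which descend from the endocardial cushions of the embryonic atrioventricular canal.

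The data were single-cell RNA counts of cells from C57BL/6 mouse embryos and newborns carrying the Tie2-Cre driver and a Rosa26 tdTomato reporter, which marks cells of endothelial descent and, since Tie2 is also active in blood lineages, some blood cells. Reporter-positive cells were sorted from the dissected atrioventricular canal at embryonic day E9.5 (1 library) and from the dissected mitral valve at E16.5 (1 library) and at birth, P0 (2 libraries, replicates 1 and 2). At least 60 embryos were pooled for each stage, so no value belongs to 1 animal, and nothing in the labels ties the P0 libraries to different litters. Each count is a unique molecular identifier (UMI), 1 captured RNA molecule read at its 3' end. Counts were therefore not divided by gene length, and levels are given as UMIs per 10000 UMIs of the cell class.

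After filtering, 1192, 314, 282 and 174 cells remained at E9.5, E16.5, P0 replicate 1 and P0 replicate 2, with medians of 24564.5, 2361.5, 5159.5 and 4407.5 UMIs per cell. Cells were clustered within each library without the collagen genes and named "-like" from marker genes, so that collagens did not define the classes. The E16.5 and P0 libraries each held interstitial-like cells (127, 74 and 40 cells), valve endothelial-like cells (71, 47 and 51) and capillary endothelial-like cells (61, 60 and 38). All 14 valve interstitial markers, Dcn, Lum and Postn among them, had UMIs in the interstitial-like cells of the 3 libraries, at a summed 73.8, 96.1 and 95.4 per 10000. In E16.5, 39 of the 127 interstitial-like cells formed a cluster led by Ccl2, Thbs1 and the stress gene Ddit3. The sorted E9.5 library went partly against its gate: 414 of its 1192 cells were cardiomyocyte-like, and 88 were endothelial-like. No E9.5 cluster met the rule for cushion mesenchyme, and 103 E9.5 cells formed a cluster with 12 of 16 endothelial and 8 of 12 cushion markers, called here the mixed endocardial and cushion cluster. The barcode lists of the P0 libraries shared 4 barcodes, 2 of them on kept cells of each library, and leaving those cells out ended none of the 41 calls given below.

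Col4a1 and Col4a2 encode the alpha 1 and alpha 2 chains of the main basement membrane collagen, and Col4a5 and Col4a6 chains of a form found in fewer tissues, and each pair lies head to head. In the GENCODE M21 annotation of GRCm38, the Col4a1 and Col4a2 genes on chromosome 8 overlapped by 22 bases, Col4a4 and Col4a3 on chromosome 1 lay 71 bases apart, and Col4a6 and Col4a5 on chromosome X lay 1308 bases apart. The windows of 250 bases before to 50 after the start are shown for the first and the last of these pairs, because the chains of each pair are compared below. They come from RefSeq (GRCm38.p6) and read 5′ to 3′ on the gene's strand. Capitals mark 3 promoter motifs on either strand, none of which overlap in these windows. The TATA box was searched as the letters TATAAA. The motif called the GC box was searched as the letters GGGCGG. The third motif was CCAAT itself.
Col4a1 (chr8:11312777-11313076, minus strand): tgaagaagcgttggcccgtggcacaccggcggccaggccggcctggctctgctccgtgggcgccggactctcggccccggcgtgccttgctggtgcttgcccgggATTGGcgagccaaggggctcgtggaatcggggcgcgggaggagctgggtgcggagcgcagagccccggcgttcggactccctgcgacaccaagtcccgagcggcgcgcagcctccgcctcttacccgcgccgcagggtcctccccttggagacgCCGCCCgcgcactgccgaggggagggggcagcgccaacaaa
Col4a2 (chr8:11312555-11312854, plus strand): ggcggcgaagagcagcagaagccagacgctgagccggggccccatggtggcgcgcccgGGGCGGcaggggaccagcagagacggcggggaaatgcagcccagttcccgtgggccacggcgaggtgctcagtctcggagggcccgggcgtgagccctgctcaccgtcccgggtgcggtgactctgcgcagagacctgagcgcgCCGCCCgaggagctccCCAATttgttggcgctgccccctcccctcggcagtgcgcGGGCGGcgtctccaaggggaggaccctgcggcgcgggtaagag
Col4a5 (chrX:141475169-141475468, plus strand): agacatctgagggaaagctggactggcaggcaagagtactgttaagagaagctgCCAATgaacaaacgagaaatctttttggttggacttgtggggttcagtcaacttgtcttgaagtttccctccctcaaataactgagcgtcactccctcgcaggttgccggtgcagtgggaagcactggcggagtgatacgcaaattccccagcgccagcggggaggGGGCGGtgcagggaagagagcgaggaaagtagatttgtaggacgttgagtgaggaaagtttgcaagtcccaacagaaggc
Col4a6 (chrX:141474027-141474326, minus strand): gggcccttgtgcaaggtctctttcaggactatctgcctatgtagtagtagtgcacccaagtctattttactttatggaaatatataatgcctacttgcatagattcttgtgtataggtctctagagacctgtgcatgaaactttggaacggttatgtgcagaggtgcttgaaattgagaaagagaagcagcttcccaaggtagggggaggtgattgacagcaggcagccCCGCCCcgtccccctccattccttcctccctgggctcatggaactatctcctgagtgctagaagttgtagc
The Col4a1 and Col4a2 windows shared 78 bases, read on opposite strands, with the 2 start sites 21 bases apart. No TATA box was found in these 4 windows. RefSeq windows matched 35 of the 44 chains (38 windows). A GC box stood in 60.5% of these windows and in 35.7% of all windows, a CCAAT box in 34.2% and 37.4%, and a TATA box in 13.2% and 13.6%. A match of letters describes the window and is no measured site. In the same annotation 10 of the 44 chains shared exonic bases with a gene on the opposite strand, Col4a1, Col4a2, Col5a1, Col9a3, Col15a1 and Col22a1 among those described, and whether counting used strand is not given in the sources used here.

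Summed over all chains, collagens made up 4.48 UMIs per 10000 of the E9.5 library, 52.6 at E16.5, with 52.0 and 46.6 at P0. The library with the most cells and the deepest counts was thus the one with the smallest collagen share. Chains with at least 1 UMI numbered 39, 34, 39 and 33 in the 4 libraries. Col10a1, Col19a1, Col28a1 and Col6a4 had 0 UMIs in all 4. The other 14 of the 18 chains not described one by one had between 1 UMI (Col6a5) and 61 UMIs (Col25a1) in all 4 libraries together. Among them were the hexagonal network chains Col8a1 and Col8a2 (32 and 26 UMIs) and the anchoring fibril chain Col7a1 (33 UMIs, 31 of them at E9.5). The heat map of chains by class shows the 26 others.

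**Figure D1:**
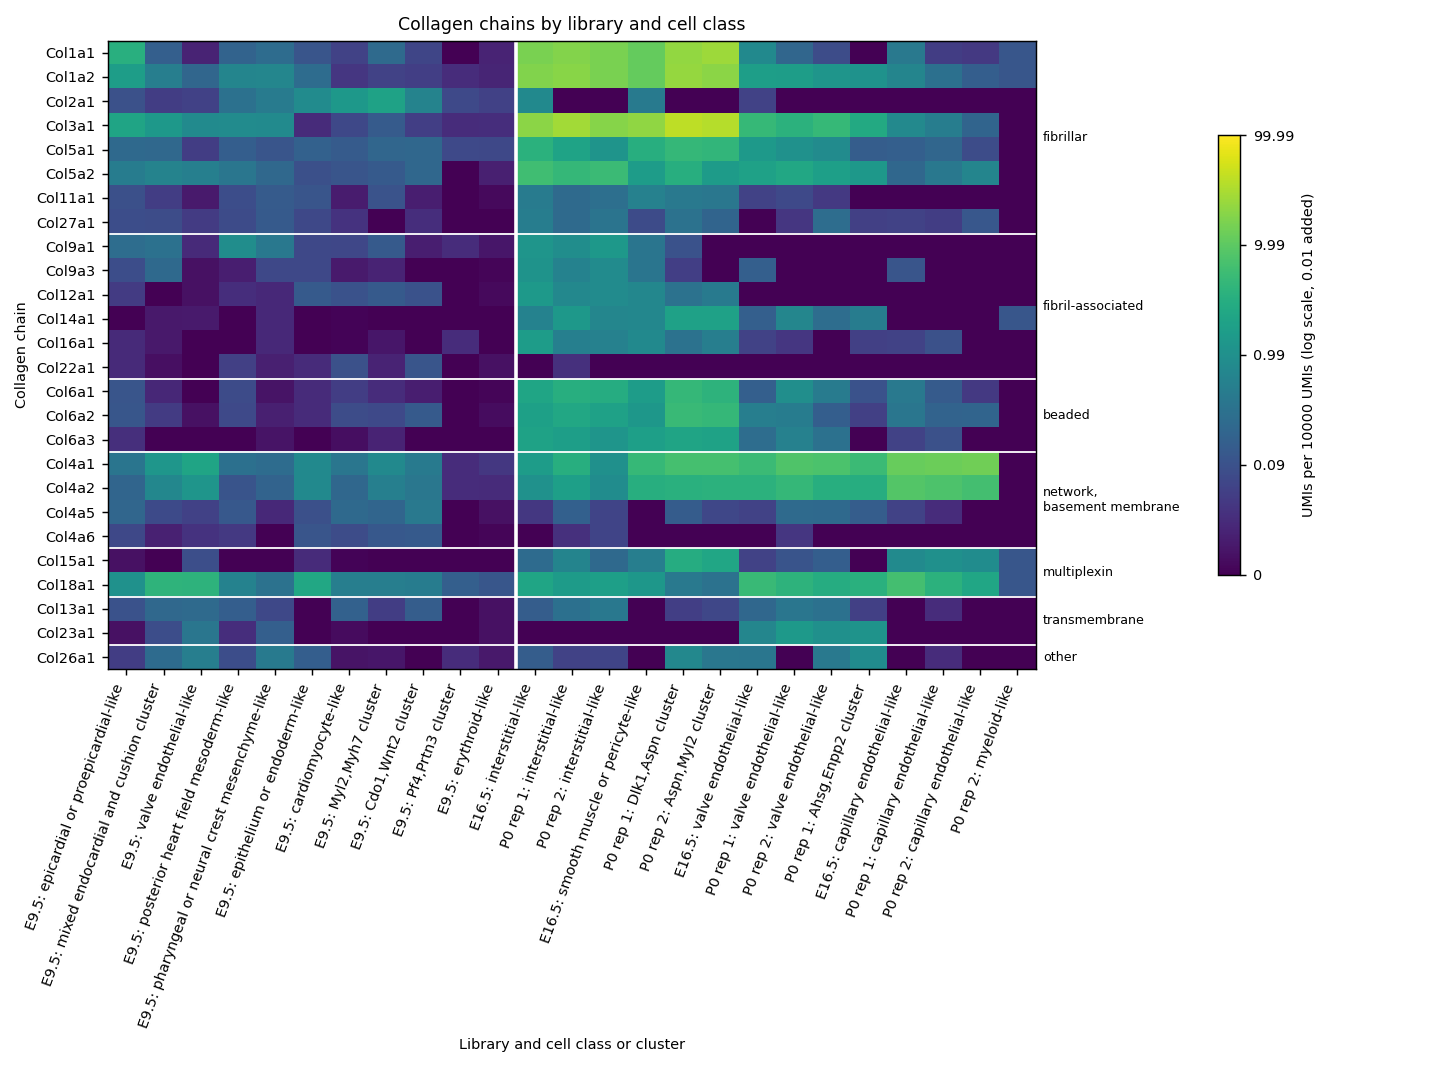
Levels of the 26 described chains (rows, grouped by collagen class) in the cell classes and clusters of each library (columns). The cardiomyocyte-like cells of E16.5 and the myeloid-like cells of P0 replicate 1 are not drawn. Colour gives UMIs per 10000 UMIs on a log scale with 0.01 added, and the white vertical line parts E9.5 from the mitral valve libraries. The brightest cells are Col1a1, Col1a2 and Col3a1 in interstitial-like cells, in smooth muscle or pericyte-like cells and in the clusters led by Aspn, and Col4a1 and Col4a2 in capillary endothelial-like cells.

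Among the 3 named classes compared in the mitral valve, fibrillar collagens were highest in the interstitial-like cells. Their summed level there was 64.8 UMIs per 10000 at E16.5 (95% Poisson interval 61.9 to 67.8), 72.1 (69.4 to 74.8) in P0 replicate 1 and 57.4 (54.0 to 61.0) in replicate 2, a P0 mean of 64.7 ± 10.3 (SD, n = 2). Valve endothelial-like cells held 10.7, 9.26 and 8.98, and capillary endothelial-like cells 2.24, 1.47 and 1.25. The order interstitial, valve endothelial, capillary held in each of the 3 libraries, and the interstitial level was 6.07 to 7.78 times the valve endothelial one (3.43 to 7.83 times with at least 1000 genes per cell). The myeloid-like cells of P0 replicate 1, which carried all 16 endothelial markers, held 22.8 UMIs of all chains per 10000, so that class is not used as a background. These differences between cell classes within a library were not tested, and the intervals cover counting error only.

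Within the fibrillar class, Col3a1, the chain of type III collagen found in pliable tissues, stood at 20.2 UMIs per 10000 in interstitial-like cells at E16.5, with 27.6 and 19.0 at P0. Col1a1 and Col1a2, the 2 chains of type I collagen, stood at 15.9 and 17.3 at E16.5, at 17.8 and 19.4 in P0 replicate 1, and at 15.5 and 15.8 in replicate 2. For all 3 chains the E16.5 level lay between the P0 levels. Col5a2, a chain of the type V collagen that nucleates fibrils, had 5.96, 4.66 and 5.26, and its partner Col5a1 had 3.56, 2.08 and 1.16. Col11a1 (0.453, 0.235 and 0.277) and Col27a1 (0.488, 0.235 and 0.332) had fewer than 1 UMI per 10000 in the same cells.

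The highest fibrillar levels of the series lay outside the named interstitial cells. At P0, a cluster of 39 cells in replicate 1, led by Dlk1, Aspn and Tnnt2, held 94.2 fibrillar UMIs per 10000, and a cluster of 33 cells in replicate 2, led by Aspn, Myl2 and Itm2a, held 87.7. Col3a1 reached 40.2 and 35.3 there, and Col1a1 22.2 and 25.5. Both clusters also carried valve interstitial markers (14 and 13 of 14 with UMIs, at 78.0 and 60.0 per 10000) and heart muscle markers (12 and 10 of 12, at 15.98 and 18.02, against 1.09 and 0.775 in the interstitial-like cells). Smooth muscle or pericyte markers stood at 15.9 and 24.5, against 9.88 and 11.3 in the interstitial-like cells, and epicardial markers at 6.34 and 4.66, against 2.01 and 0.332. The clusters met the rule for no name, and the part of these other transcripts in the collagen levels was not tested. The smooth muscle or pericyte-like cells of E16.5 (45 cells) held 50.4 fibrillar UMIs per 10000, with Col3a1 at 21.9. Beside smooth muscle or pericyte markers at 16.53 per 10000 (11 of 12 with UMIs), these cells held more UMIs of valve interstitial markers (14 of 14, at 38.5) and of myeloid markers (11 of 12, at 21.92). In the interstitial-like cells of E16.5 the 3 lists stood at 4.26, 73.8 and 0.279. The part of these markers' cells in the collagen levels of the class was not tested.

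Endothelial cells carried type I collagen unevenly between its chains. In valve endothelial-like cells Col1a2 stood at 1.74 UMIs per 10000 at E16.5, with 1.66 and 1.22 at P0, while Col1a1 stood at 0.769, 0.199 and 0.0739. In UMIs this was 15 Col1a1 against 34 Col1a2 at E16.5, 6 against 50 in P0 replicate 1 and 2 against 33 in replicate 2. The ratio of Col1a1 to Col1a2 was thus 0.441 (95% interval 0.223 to 0.832), 0.120 (0.0420 to 0.280) and 0.0606 (0.00705 to 0.237). Interstitial-like cells of the same libraries had ratios of 0.919 (0.808 to 1.05), 0.917 (0.825 to 1.02) and 0.986 (0.833 to 1.17). The valve endothelial ratio was the lower one in each library, with intervals that did not overlap at P0 and overlapped at E16.5. The P0 cluster led by Ahsg, Enpp2 and Cd24a, which carried all 16 endothelial markers, had 0 Col1a1 and 23 Col1a2 UMIs, and E9.5 endothelial-like cells had 3 and 41. Col3a1 stood at 4.72, 3.75 and 4.77 in valve endothelial-like cells. At equal depth of 1000 UMIs per cell, 12.6%, 13.2% and 11.4% of valve endothelial-like cells would show Col1a2 and 5.80%, 1.26% and 1.03% Col1a1; without thinning the shares were 21.1%, 36.2% and 31.4%, and 12.7%, 8.51% and 3.92%. The myeloid-like cells of P0 replicate 2, which should lack collagens, held 0.538 UMIs of all 44 chains per 10000 and showed Col1a2 in 8.33% of 12 cells (0.965% when thinned), at a median of 6653.5 UMIs against 4179 in the valve endothelial-like cells. Those of P0 replicate 1, not used as a background, held 15 Col1a2 and 9 Col1a1 UMIs among 231325.

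**Figure D2:**
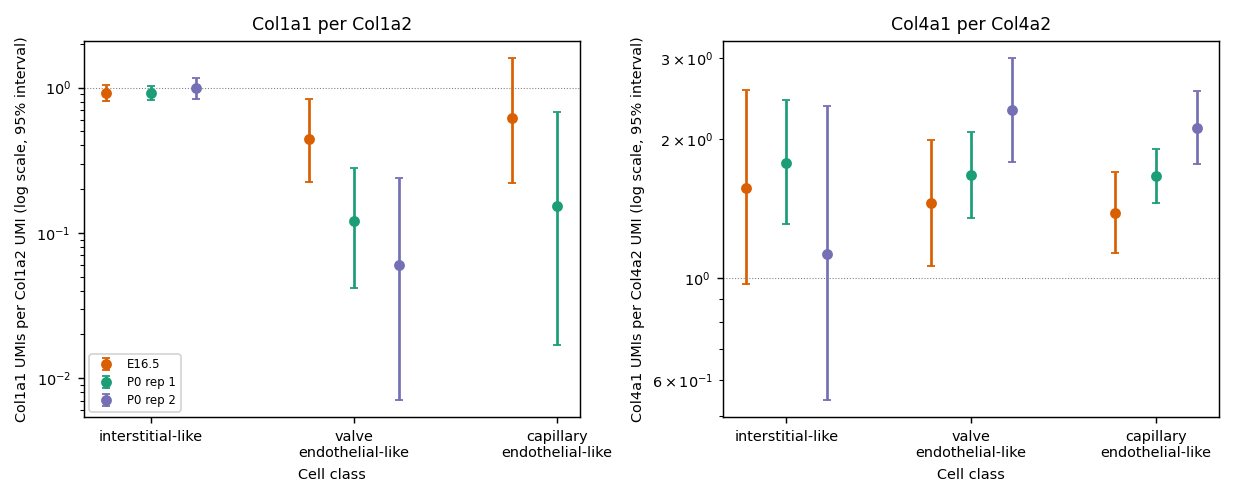
Ratio of Col1a1 to Col1a2 UMIs (left) and of Col4a1 to Col4a2 UMIs (right) in 3 cell classes of the 3 mitral valve libraries, on log axes; points are ratios, bars 95% intervals from counting error, and the P0 replicate 2 capillary class, with 5 UMIs of both type I chains, has no point on the left. Col1a1 per Col1a2 lies near 1 in interstitial-like cells and at 0.441, 0.120 and 0.0606 in valve endothelial-like cells, while Col4a1 per Col4a2 lies between 1.13 and 2.31 throughout.

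The partner chains of type V collagen also differed by cluster. Col5a1 per Col5a2 was 0.596, 0.447 and 0.221 in interstitial-like cells, but 1.47 (1.08 to 2.02) and 2.72 (1.70 to 4.49) in the P0 clusters led by Aspn, and 1.96 (1.16 to 3.39) in the E16.5 smooth muscle or pericyte-like cells, which also carried the interstitial and myeloid markers given above. The ratio in each of these 3 groups of cells was above that in the interstitial-like cells of its own library, with intervals that did not overlap. Transcripts at 3' ends can be captured unequally, so a ratio is read here between cell classes and not as a ratio of proteins.

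Col2a1, the chain of cartilage type II collagen, was seen at E16.5 and not at P0 in the mitral valve. It had 29 UMIs at E16.5, 22 of them in interstitial-like cells (0.767 per 10000) and 6 in smooth muscle or pericyte-like cells. At P0 it had 0 UMIs in both libraries, which allows up to 0.0166 and 0.0307 per 10000 over the kept cells (3 UMIs).

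Fibril-associated collagens followed the interstitial-like cells as well, at a summed 6.21 UMIs per 10000 at E16.5, with 4.25 and 4.43 at P0, against 0.359, 0.697 and 0.259 in valve endothelial-like cells and at most 0.153 in capillary endothelial-like cells. The interstitial level was 6.09 to 17.3 times the valve endothelial one. Col9a1 and Col9a3, chains of type IX collagen, which sits on cartilage-type fibrils, stood at 1.22, 0.912 and 1.33 and at 1.12, 0.573 and 0.830 in interstitial-like cells. Col9a1 had 0 UMIs in valve and capillary endothelial-like cells in all 3 libraries. Col12a1 (1.40, 0.730 and 0.830) likewise had 0 UMIs in both endothelial classes, and Col16a1 (1.64, 0.521 and 0.553) had at most 4. Col14a1, a chain linked to mature fibrils, was the exception: it was highest in the P0 clusters led by Aspn (1.90 and 1.93), above the interstitial-like cells (1.36 and 0.664), while Col9a1 had only 2 and 0 UMIs in those clusters.

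Beaded filament collagens were also highest in interstitial-like cells among the 3 named classes, though not among all clusters. Their sum was 6.35 UMIs per 10000 at E16.5, with 7.77 and 6.47 at P0 in interstitial-like cells, 3.97 to 7.30 times the valve endothelial level, and 12.2 and 10.6 in the P0 clusters led by Aspn. Type VI collagen is assembled from 1 chain each of Col6a1, Col6a2 and Col6a3. In interstitial-like cells Col6a1 stood at 2.23, 3.18 and 2.99, Col6a2 at 1.85, 2.53 and 1.94, and Col6a3 at 2.02, 1.72 and 1.22. Col6a3 per Col6a1 was 0.906 (0.624 to 1.31) at E16.5, with 0.541 (0.395 to 0.736) and 0.407 (0.236 to 0.680) at P0. The E16.5 interval overlapped those of both P0 libraries.

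The basement membrane network had the opposite order among the 3 classes compared, with capillary endothelial-like cells first. Its sum was 20.2 UMIs per 10000 at E16.5, with 20.5 and 20.1 at P0 in capillary endothelial-like cells, then 8.98, 12.8 and 11.1 in valve endothelial-like cells and 2.76, 5.13 and 1.99 in interstitial-like cells. The capillary level was 4.002 to 10.1 times the interstitial level and 1.60 to 2.25 times the valve endothelial level. The 3 capillary values lay close together, whereas the interstitial level of P0 replicate 1 was above that of the other 2 libraries. Cells outside these 3 classes also held these chains. The cluster led by Aspn in P0 replicate 2 held 10.4, near the valve endothelial 11.1 of that library. The myeloid-like cells of P0 replicate 1, which carried endothelial markers, held 15.9, above the valve endothelial 12.8.

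Col4a1 stood at 11.7, 12.8 and 13.6 and Col4a2 at 8.46, 7.70 and 6.44 in capillary endothelial-like cells. Col4a1 per Col4a2 ran from 1.13 to 2.31 over the 3 classes and 3 libraries and was 1.83 and 1.78 in the mixed and the endothelial-like cells of E9.5. Col4a5 and Col4a6 had 373 and 133 UMIs at E9.5, the deepest library, 4 and 1 at E16.5, and 21 and 2, then 8 and 1, at P0. Col4a3 and Col4a4, the chains of the mature kidney membrane, had 5 and 24 UMIs in all 4 libraries.

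**Figure D3:**
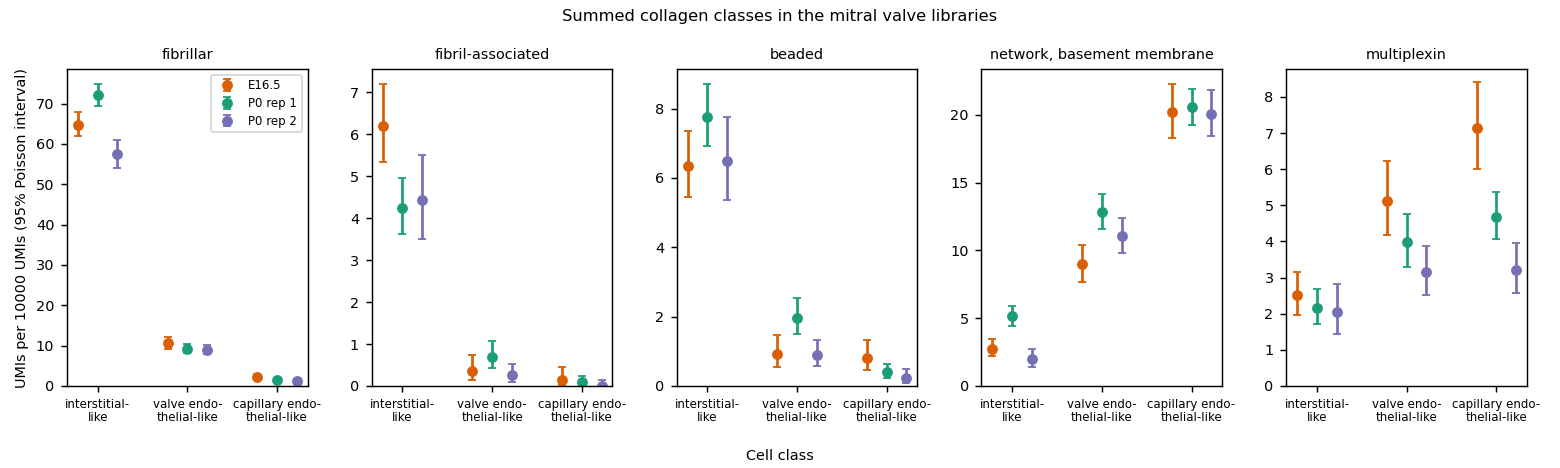
Summed level of 5 collagen classes (UMIs per 10000 UMIs, one axis per class, bars 95% Poisson intervals) in interstitial-like, valve endothelial-like and capillary endothelial-like cells of the E16.5 library and both P0 libraries. Fibrillar, fibril-associated and beaded collagens are highest in interstitial-like cells in all 3 libraries, and the basement membrane network in capillary endothelial-like cells.

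Multiplexins are basement membrane proteoglycans, and Col18a1 yields the fragment endostatin. Their sum was higher in valve endothelial-like than in interstitial-like cells in 3 of 3 libraries (5.13 against 2.51 at E16.5, 3.98 against 2.16 and 3.14 against 2.05 at P0), and likewise in capillary endothelial-like cells (7.13, 4.68 and 3.20). The 2 members had different places. Col18a1 stood at 6.32, 3.67 and 2.32 in capillary and 5.08, 3.88 and 2.99 in valve endothelial-like cells. Col15a1 stood at 0.815, 1.01 and 0.883 in capillary but only 0.0513, 0.0996 and 0.148 in valve endothelial-like cells. In the P0 clusters led by Aspn, Col15a1 stood at 2.94 and 2.30 and Col18a1 at 0.407 and 0.311. Col15a1 per Col18a1 was 7.22 (3.58 to 16.498) and 7.40 (2.90 to 24.1) there and 0.407 and 0.121 in the interstitial-like cells of the same libraries.

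Col23a1, a transmembrane collagen, was found in valve endothelial-like cells. It stood at 0.667, 1.43 and 0.998 UMIs per 10000 in valve endothelial-like cells, with 13, 43 and 27 UMIs, and at 1.12 in the P0 cluster led by Ahsg, and had 0 UMIs in capillary and interstitial-like cells in all 3 libraries. A count of 0 allows up to 0.153, 0.0660 and 0.110 per 10000 in capillary and 0.105, 0.0782 and 0.166 in interstitial-like cells. Col13a1, the other transmembrane chain described, was seen in both classes, with 0.337 ± 0.0711 in interstitial-like and 0.330 ± 0.0491 in valve endothelial-like cells at P0 (mean ± SD, n = 2). Col26a1, a small collagen of uncertain class, varied between the P0 libraries in valve endothelial-like cells, with 0 and 11 UMIs.

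At E9.5 collagen levels were low and spread over many cell types, most of them not endothelial. The epicardial or proepicardial-like cells had the highest total, 10.9 UMIs per 10000, followed by the endothelial-like cells (10.3) and the mixed cluster (10.2). Erythroid-like cells, which should make no collagen, held 0.406, and their level is given below for Col2a1 and Col18a1 alone. Median depth ran from 17979.5 to 33746 UMIs per cell over the E9.5 classes.

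Most Col1a1 at E9.5 lay in part of the epicardial or proepicardial-like class. The class held 673 of its 885 UMIs (76.0%), at 3.31 per 10000, against 0.247 or less in every other named class. Within that class the cluster led by Dlk1, Ptn and Tbx18 held 5.52. The cluster led by the epicardial markers Upk3b, Tbx18 and Wt1 held only 0.0845. Col3a1 was broader, at 2.17 in epicardial-like cells, 1.33 in the mixed cluster, 0.845 in posterior heart field mesoderm-like cells, 0.825 in pharyngeal or neural crest mesenchyme-like cells and 0.823 in endothelial-like cells.

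Col2a1 at E9.5 lay mostly in cardiomyocyte-like cells. Of its 1894 UMIs, 1329 (70.2%) were in cardiomyocyte-like cells, at 1.37 per 10000, and 271 more in an unnamed cluster led by Myl2, Myh7 and Nppa, at 1.98. Among the cardiomyocyte-like clusters it was highest in the one led by Nppa, Casq1 and Stard10 (2.73), against 1.20 in that led by Rspo3 and 1.02 in that led by Myh6. A Col2a1 UMI was seen in 75.6% of cardiomyocyte-like cells and in 14.4% of erythroid-like cells, at median depths of 23554 and 32399 UMIs. Thinned to 1000 UMIs per cell, the shares would be 12.8% and 0.578%. The mixed and the endothelial-like cells had 0.0439 and 0.0487, no more than the erythroid-like background of 0.0490. Col22a1, a fibril-associated collagen of tissue junctions in muscle, had 87 of its 118 UMIs (73.7%) in cardiomyocyte-like cells, and Col4a5 214 of 373 (57.4%).

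Other E9.5 chains had other leading classes. Col9a1 was highest in posterior heart field mesoderm-like cells (0.910), then in pharyngeal-like cells (0.387) and the mixed cluster (0.299). Col9a3 was highest in the mixed cluster (0.220). Col4a1 stood at 2.16 in endothelial-like cells, 1.26 in the mixed cluster and 0.791 in the Myl2 cluster. Col18a1 stood at 3.99 in the mixed cluster and 3.89 in endothelial-like cells, 2.53 in epithelium or endoderm-like cells and 0.109 in erythroid-like cells. Col23a1 was highest in endothelial-like cells at E9.5 too (0.360, 74 of 128 UMIs), as was Col26a1 (0.501). Col13a1 had 330 of its 381 UMIs in this deepest library, up to 158 in 1 class. Col12a1 had 137 of its 244 there, up to 88 in 1 class. Type VI collagen was nearly missing, with 86, 143 and 12 UMIs of Col6a1, Col6a2 and Col6a3 among 30447890 UMIs.

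**Figure D4:**
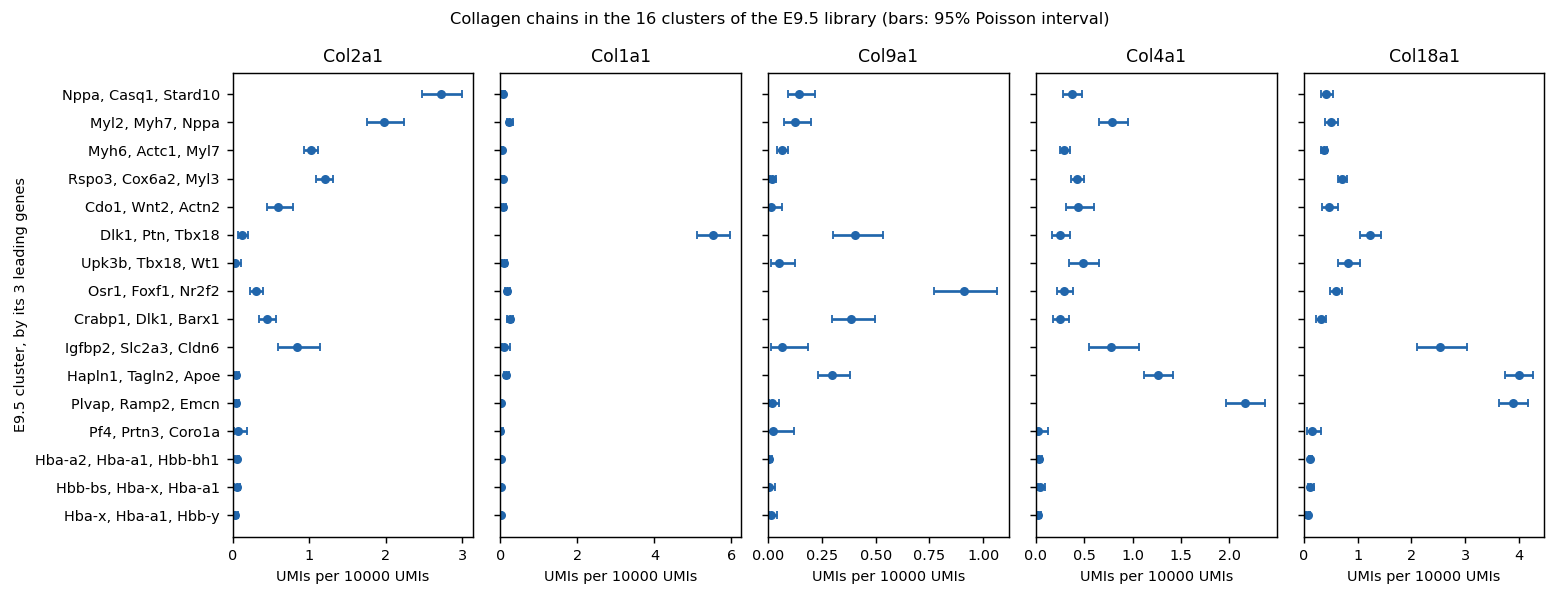
Levels of 5 chains (UMIs per 10000 UMIs, bars 95% Poisson intervals) in each of the 16 clusters of the E9.5 library, each row named by the 3 genes that lead it. Col2a1 is highest in the Nppa-led and Myl2-led clusters, Col1a1 in the Dlk1-led cluster, Col9a1 in the Osr1-led cluster, Col4a1 in the Plvap-led cluster, and Col18a1 in the Hapln1-led and Plvap-led clusters.

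Stages were compared on UMIs summed per library and cell class with edgeR's quasi-likelihood test, fitted across all genes that passed the filter on low counts. Calls needed a Benjamini-Hochberg adjusted p under 0.05 and a lone E9.5 or E16.5 library beyond both P0 libraries on the normalized scale. The only replicates are the 2 P0 libraries, so the lone libraries are assumed to vary as P0 does. Each fit had 1 residual degree of freedom. The weight of the spread pooled over genes (prior degrees of freedom) was infinite in the interstitial and valve endothelial fits and 17.2 in the capillary fit. The p-values thus rest wholly or mostly on how far these 2 samples lie apart over all genes, not on their distance for each chain. The E9.5 and E16.5 comparisons use the same P0 libraries. Normalization mattered: TMM scaling put the median of all genes at -0.11 (log2, E16.5 over P0) in interstitial-like cells, -0.12 in valve endothelial-like and -0.20 in capillary endothelial-like cells, and scaling by library totals put it at -0.59, -0.63 and -0.93. Depth moves with this contrast, since interstitial-like cells had a median of 2031 UMIs at E16.5, with 4249.5 and 4030 at P0, and its part in the changes was not tested.

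In interstitial-like cells, 8 of the 18 chains tested were higher in the E16.5 library and 0 were lower, where 15.3% of all 3865 genes tested were called higher and 12.2% lower. At an unadjusted p under 0.05, 10 of the 18 differed, all higher, and DESeq2 called 0 lower. The median log2 change of the 18 chains was 0.56, beside -0.11 over all genes tested, and with library totals 0.08, beside -0.59. The 26 chains not tested did not reach the filter. The P0 sums leave out the unnamed clusters led by Aspn (39 and 33 cells), whereas every E16.5 cluster had a name. The part of this in the changes was not tested. In the Aspn cluster of P0 replicate 2, Col5a1 stood at 4.23 per 10000, above its level in E16.5 interstitial-like cells. Col5a2, Col16a1 and Col12a1 stood at 1.55, 0.497 and 0.435 there, below their E16.5 levels. The chains called were 3 of 6 fibrillar (Col5a1, Col5a2 and Col2a1), 3 of 5 fibril-associated (Col9a3, Col12a1 and Col16a1), 1 of 3 beaded (Col6a3) and 1 of 2 multiplexin (Col18a1), and neither basement membrane chain. Of these, Col2a1 passed the filter through its E16.5 UMIs alone, so it could be called higher or not called, but not lower. The type I and type III chains Col1a1, Col1a2 and Col3a1 were not called at log2 changes of 0.42, 0.46 and 0.27, and each of the 3 turned below 0 with library totals (-0.07, -0.03 and -0.21).

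Col16a1, with 47 UMIs at E16.5 against 20 and 10 at P0, was higher at E16.5 by 2.11 ± 0.47 (log2 ± SE, adjusted p = 9.22e-05 by edgeR's quasi-likelihood test). Col5a1, with 102 UMIs against 80 and 21, was higher at E16.5 by 1.54 ± 0.32 (adjusted p = 2.11e-05 by edgeR), a value that was 2.09 against P0 replicate 2 alone. Col2a1, with 22 UMIs against 0 and 0, was at least 14.4-fold higher, counted against 3 UMIs over both P0 libraries (adjusted p = 0.0112 by edgeR). These 3 were also called with library totals; the other 5, Col12a1 (1.35 ± 0.44), Col9a3 (1.23 ± 0.46), Col18a1 (0.94 ± 0.34), Col6a3 (0.90 ± 0.36) and Col5a2 (0.76 ± 0.26), were not. DESeq2 called 1 of the 14 chains to which it gave an adjusted p, Col5a1, and with at least 1000 genes per cell 1 chain was called higher (Col18a1) and 1 lower (Col6a1). Without the E16.5 cluster led by Ccl2 and Ddit3, 8 of 19 chains were higher: Col12a1 and Col9a3 were no longer called, and Col1a1 (0.66) and Col1a2 (0.64) were.

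In valve endothelial-like cells, 1 of the 13 chains tested was higher at E16.5, Col18a1, and 0 were lower, where 11.7% and 8.42% of 4393 genes were called. Col18a1 had 99 UMIs at E16.5 (5.08 per 10000) against 117 and 81 at P0 (3.88 and 2.99), and was higher at E16.5 by 1.07 ± 0.33 (log2 ± SE, adjusted p = 0.00832 by edgeR's quasi-likelihood test). It was not called with library totals (0.56) or by DESeq2. At an unadjusted p under 0.05, 3 of the 13 chains differed, all higher, and DESeq2 called 0 of 8 in either direction. Col1a1 (2.97 ± 1.76) was not called.

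In capillary endothelial-like cells, 4 of the 7 chains tested were higher at E16.5 and 0 lower, where 20.9% and 15.8% of 3388 genes were called. At an unadjusted p under 0.05, 5 differed, all higher, and DESeq2 called 2 of 4 higher and 0 lower. The 4 called by edgeR were Col18a1 (1.79 ± 0.27, adjusted p = 3.42e-05 by edgeR), Col4a2 (0.99 ± 0.23, adjusted p = 0.00201), Col4a1 (0.57 ± 0.21, adjusted p = 0.0411) and Col3a1 (1.81 ± 0.65, adjusted p = 0.0371). Only Col18a1 of the 4 was also called with library totals (1.05), where Col4a1 turned to -0.17. Col3a1 rested on 15 UMIs at E16.5, with 22 and 5 at P0, and passed the filter on low counts through the E16.5 sum alone. Its change was 2.79 without P0 replicate 1, and turned to -0.53 when collagens were kept for clustering and to -0.83 with at least 1000 genes per cell. Col18a1 was thus called higher at E16.5 in all 3 cell classes, and with library totals in capillary endothelial-like cells alone.

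**Figure D5:**
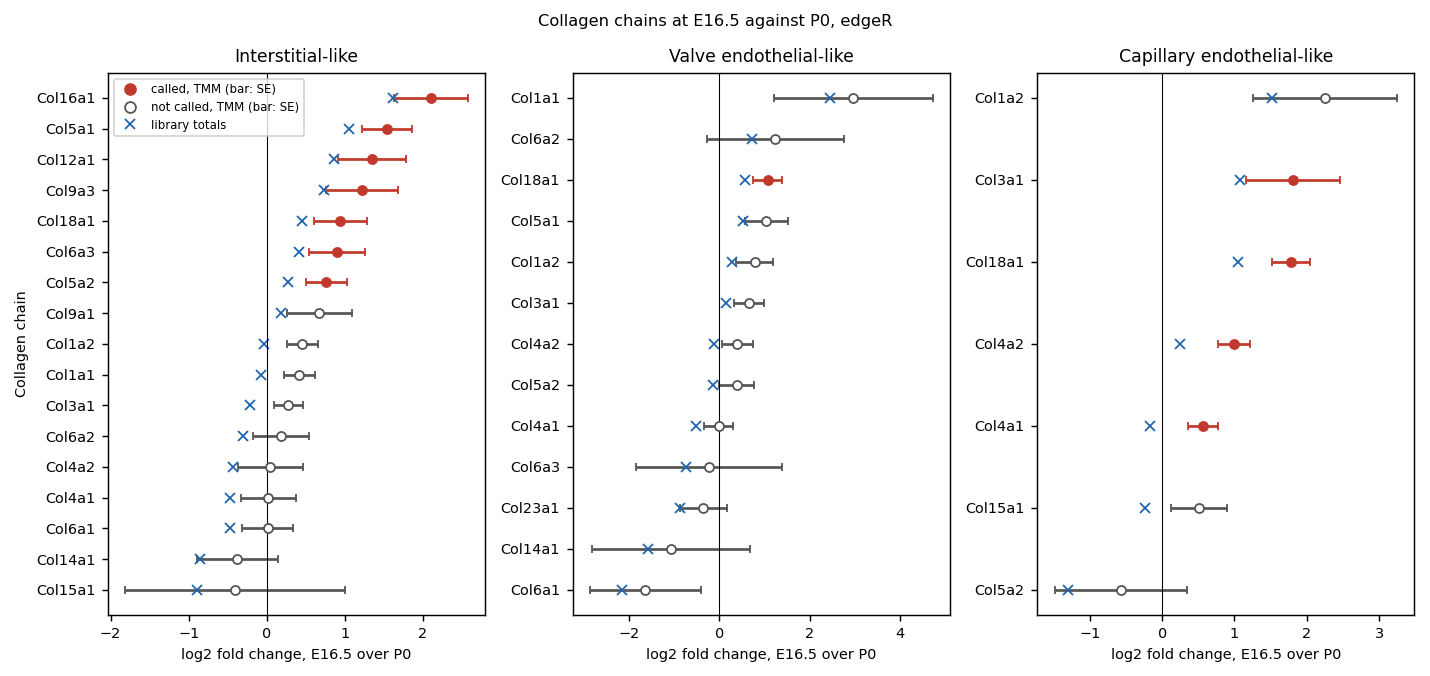
Log2 fold change at E16.5 over P0 of each chain tested in 3 cell classes: circles are edgeR values with TMM scaling, filled where called, with bars of 1 SE, and crosses the values with library totals; Col2a1, with 0 UMIs at P0, is left out. Every cross lies to the left of its circle, and the called chains with crosses farthest above 0 are Col16a1 and Col5a1 in interstitial-like cells and Col3a1 and Col18a1 in capillary endothelial-like cells.

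Whether the E16.5 to P0 difference was itself different between cell classes was tested by an edgeR interaction term with the library as a block. None of 19 chains passed against valve endothelial-like cells and none of 18 against capillary endothelial-like cells, where 0.343% and 0.128% of all genes passed (3 and 5 chains at an unadjusted p under 0.05). Some of these chains could not pass. Col9a1 and Col12a1 had 0 UMIs in both endothelial classes, Col23a1 had 0 in interstitial-like cells, and Col2a1 had 0 at P0. For such chains the test cannot decide whether the classes differed. Col1a1 came nearest, with interstitial minus endothelial differences of -2.49 (adjusted p = 0.0511 by edgeR) and -3.42 (adjusted p = 0.0982).

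Against P0 interstitial-like cells, the mixed endocardial and cushion cluster of E9.5 had less of nearly every chain tested. Of 18 chains tested 16 were lower, where 23.9% of all genes were called lower, and 1 was higher, where 19.9% were. The filter followed the smallest sum, so a chain needed more UMIs to enter through the deeper E9.5 sum than through P0. Most chains called lower, Col1a1, Col1a2, Col5a1, Col9a1, Col9a3, Col12a1, Col14a1, Col15a1, Col16a1 and the type VI chains, entered through the later sums alone. Such a chain could be called lower or not called, but hardly higher, so the count of lower chains is partly set by the filter. Of chains not tested, Col26a1 was higher (55 UMIs against 3, ratio 4.55, 1.48 to 22.7), and Col23a1 had 18 against 0. Col11a1 and Col27a1 were lower (ratios of 0.177 and 0.281), and Col6a6 had 0 UMIs against 18. The 2 groups differ in stage, in tissue dissected, in depth (medians of 22666 UMIs against 4249.5 and 4030) and in cell type, which cannot be told apart. The mixed cluster held endothelial markers at 20.4 per 10000 (16 of 16 with UMIs), against 7.17 and 5.53 (11 and 9 of 16) in the P0 interstitial-like cells, and valve interstitial markers at 11.9 (12 of 14), against 96.1 and 95.4 (14 of 14 in both). Col1a1, with 35 UMIs (0.154 per 10000) against 682 and 281 (17.8 and 15.5), was lower at E9.5 by 7.09 ± 0.30 on the log2 scale (adjusted p = 3.78e-110 by edgeR's quasi-likelihood test). Col1a2 was lower at E9.5 by 5.46 ± 0.26 and Col3a1 by 4.48 ± 0.23. Col6a3, Col12a1 and Col15a1 had 0 UMIs at E9.5 and were at least 118-fold, at least 57.8-fold and at least 37.6-fold lower (3 UMIs of the cluster). Col14a1 and Col16a1 had 2 UMIs each, ratios of 0.00775 (0.000919 to 0.0292) and 0.0165 (0.00191 to 0.0651) to P0. Without P0 replicate 1 the fitted change of Col14a1 moved from -7.02 to -6.39, and without replicate 2 that of Col15a1 from -8.38 to -9.12.

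Among the chains called lower at E9.5, the smallest differences were those of the basement membrane chains and of type IX collagen. Col4a1 and Col4a2 were lower at E9.5 by 1.18 ± 0.30 and 1.38 ± 0.34 with both P0 libraries and stood at -0.02 and -0.72 without P0 replicate 1. On plain shares the Col4a1 level of 1.26 lay between the P0 values of 3.15 and 0.996, and it was not called with library totals. Col9a1 and Col9a3 were lower at E9.5 by 2.18 ± 0.39 and 1.94 ± 0.44. Col18a1 was the chain called higher at E9.5, with 909 UMIs (3.99) against 59 and 33 (1.54 and 1.83), by 0.93 ± 0.28 (adjusted p = 0.00333 by edgeR). DESeq2 called 0 chains higher and 13 lower. Col2a1, with 10 UMIs against 0 and 0, was not called.

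In endothelial-like cells, 11 of 13 chains tested were lower at E9.5 than at P0 and 0 higher, where 21.9% and 23.1% of genes were called. At an unadjusted p under 0.05 the same 11 differed, and DESeq2 called 10 lower and 0 higher. Here too Col1a2, Col5a1, Col6a1, Col6a2, Col6a3, Col14a1 and Col23a1 entered the test through the later sums alone and could hardly be called higher. Among chains not tested, Col26a1 was higher at E9.5 (103 UMIs against 11, ratio 2.61, 1.40 to 5.38). Col4a5 and Col25a1, also not tested, were lower (ratios of 0.214 and 0.0557). Col6a1 and Col6a3 had 0 UMIs at E9.5, at least 47.9-fold and at least 29.9-fold lower, and Col6a2 had 1 (ratio 0.0155, 0.000371 to 0.0980). The fitted changes of Col6a1, Col6a3 and Col6a2 (-8.68, -8.00 and -5.66) were -9.36, -8.64 and -6.29 without P0 replicate 2, and that of Col6a2 was -4.76 without replicate 1. Col5a1 was lower at E9.5 by 4.53 ± 0.56, Col1a2 by 2.98 ± 0.42, Col3a1 by 2.51 ± 0.35, Col4a1 by 1.95 ± 0.32 and Col23a1 by 1.88 ± 0.41. Col18a1 was not called, at 0.04 ± 0.30: its levels were 3.89 at E9.5 and 3.88 and 2.99 at P0.

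Genes that modify, secrete, trim and cross-link collagens were read from lists of 18, 8, 9 and 6 genes, with 10 receptors and 12 breakdown genes and inhibitors. P4hb, a subunit of the prolyl hydroxylase that stabilizes the triple helix, was higher at E16.5 than at P0 in all 3 classes (1.70 ± 0.27, 1.44 ± 0.34 and 1.52 ± 0.29), as it was with library totals and by DESeq2. It was the only one called of 14, 12 and 6 modifying genes tested, where 15.3%, 11.7% and 20.9% of all genes were called higher. In interstitial-like cells 2 of 4 cross-linking genes were higher at E16.5, Loxl1 (1.39 ± 0.28) and Pxdn (1.19 ± 0.37), where 15.3% of all genes were called higher. Of the receptors, the integrin chain Itgb1 was lower in interstitial-like (-1.11 ± 0.34, 1 of 2 tested) and in capillary endothelial-like cells (-1.16 ± 0.29, 1 of 1), where 12.2% and 15.8% of all genes were called lower. DESeq2 called it in neither. Of the breakdown list, the inhibitor Timp1 was higher in interstitial-like (1.48 ± 0.32) and valve endothelial-like cells (2.38 ± 0.49), and the membrane protease Mmp14 was lower, with 0 UMIs against 115 and 1 against 87. In each of these 2 classes 1 of 6 breakdown genes was called higher and 1 lower. Of all genes, 15.3% and 11.7% were called higher there and 12.2% and 8.42% lower. In interstitial-like cells edgeR called 0 of 3 propeptide removal and 0 of 5 secretion genes, with 0 at an unadjusted p under 0.05 and 0 by DESeq2.

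In the mixed cluster of E9.5, 6 of 14 modifying, 3 of 3 propeptide removal, 4 of 4 cross-linking, 2 of 2 receptor and 6 of 6 breakdown genes were lower than in P0 interstitial-like cells, where 23.9% of all genes were called lower. Of the secretion genes 1 of 5 was lower, a share near that of all genes. Loxl1, a lysyl oxidase, fell by 6.47 ± 0.43 while Pcolce, the enhancer of propeptide cleavage, fell by 4.07 ± 0.33. Adamts2, a procollagen N-proteinase, had 0 UMIs against 70. A gene with so few UMIs at E9.5 entered the test through the later sums alone and could hardly be called higher. In E9.5 endothelial-like cells the collagen chaperone Serpinh1 was higher than at P0 (1.21 ± 0.28), as was the coat protein gene Sec13 (1.62 ± 0.37), while 2 of 2 cross-linking and 4 of 6 breakdown genes were lower, where 21.9% of all genes were called lower and 23.1% higher.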

How the data were processed

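Cells were sorted on tdTomato and sequenced with droplet 3' libraries. Per the submitters' processing notes, the authors used Cell Ranger 2.1.1 and mm10, and they deposited UMI counts per gene and cell. Of 1206, 452, 291 and 211 deposited cells, those with at least 500 genes and at most 10% mitochondrial UMIs were kept after doublet calling (Scrublet in scanpy 1.11.5), which marked 7, 4, 1 and 4 cells. Cells were clustered per library (2000 variable genes without collagens, 20 components, 15 neighbours, resolution 1) and named by at least 3 markers. UMIs were summed per library and class and tested with edgeR 4.0.16 in R 4.3.3 (TMM scaling; a gene entered with at least the CPM that 10 counts give in the smallest sum, in at least 1 sum). DESeq2 1.42.0 was an alternative. In data simulated for the E16.5 and P0 comparison, 199, 200 and 196 of 3183, 4040 and 3651 genes tested were changed 4-fold, with 1 common spread per class. Of these changes edgeR recovered 85.43% in interstitial-like, 75% in valve endothelial-like and 82.65% in capillary endothelial-like cells. The changed genes were drawn from those with at least 10 expected counts in the smallest sum. Smaller changes, such as most of those called at E16.5, were not simulated. Intervals cover counting error only. The planned comparison of E9.5 cushion mesenchyme-like cells used the mixed cluster instead, as no cluster met that name. The P0 barcode lists held 211 entries for 291 cells and 291 for 211, so each was read with the matrix of its length, to count shared barcodes. Named chains were those with at least 20 UMIs in a class; of each gene list, at most 3 called genes a comparison were named. The chains and lists were chosen with earlier results of these data known.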

Additional observations from a re-analysis of the deposited data

How the results depend on the processing

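Each of the 7 orders of collagen classes between cell classes held in 3 of 3 libraries with collagens kept for clustering, with at least 1000 genes per cell and without a mitochondrial limit. Of the 41 calls over the 5 comparisons, 31 kept direction and call with library totals (9 lost the call, 1 reversed), 26 of 38 with DESeq2, 33 of 41 without a filter on low counts, 37 of 40 with collagens kept for clustering, 24 of 35 with at least 1000 genes per cell and 36 of 40 without a mitochondrial limit; the causes were not tested. No paired analysis was possible because the groups compared share fewer than 2 replicate numbers. The counts that moved were these. In interstitial-like cells, E16.5 over P0, 3 chains were higher with library totals, 1 with DESeq2, 3 without a filter, 1 with at least 1000 genes (and 1 lower) and 5 without a mitochondrial limit. In valve endothelial-like cells 0 were higher with library totals, with DESeq2 and with at least 1000 genes. In capillary endothelial-like cells 1 was higher with library totals, 2 with DESeq2, 1 with at least 1000 genes and 2 without a mitochondrial limit. For E9.5, DESeq2 called 0 higher in the mixed cluster, and in endothelial-like cells 1 was higher without a filter and 7 lower with at least 1000 genes.

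Log2 changes that reversed, E16.5 over P0 in interstitial-like cells, were with library totals Col3a1 -0.21, Col1a2 -0.030, Col6a2 -0.30, Col6a1 -0.47, Col4a1 -0.47, Col4a2 -0.44 and Col1a1 -0.072. With at least 1000 genes they were Col9a1 -0.037, Col3a1 -0.24, Col5a2 -0.27, Col1a2 -0.52, Col6a2 -0.49, Col6a1 -1.48, Col1a1 -0.17 and Col14a1 0.0017. Without a filter they were Col6a1 -0.059, Col4a1 -0.050 and Col4a2 -0.025. With collagens kept they were Col4a1 -0.53 and Col4a2 -1.02. Without a mitochondrial limit they were Col6a2 -0.011, Col4a1 -0.38 and Col4a2 -0.42, and without the Ddit3 cluster, an alternative chosen after seeing the data, Col4a1 -0.030. In valve endothelial-like cells they were Col5a2 -0.13 and Col4a2 -0.11 (library totals), Col6a3 0.15 and Col4a1 0.12 (no mitochondrial limit), Col4a1 0.048 (DESeq2) and Col4a2 -0.17 (at least 1000 genes). In capillary endothelial-like cells they were Col3a1 -0.53 (collagens kept) and -0.83 (at least 1000 genes), Col15a1 -0.23 and Col4a1 -0.17 (library totals). For E9.5 endothelial-like cells Col18a1 was -0.042 (collagens kept), -0.080 (at least 1000 genes) and -0.026 (no mitochondrial limit).

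Leaving out 1 P0 library leaves no spread to test, so those fits give values only. Of the called values, 12 of 37 moved by more than 1 SD of the values against each P0 library alone without P0 replicate 1 and 7 of 41 without P0 replicate 2, and 0 reversed. E16.5 is the shallowest library, and chains under 20 UMIs in every class were not read one by one.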
